A study of Homo sapiens with 6 samples.

Results

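The kinesin motor genes of the HCC827 expression table were taken as every row whose gene symbol is KIF followed by a number and at most 1 of the letters A to C, or KIFC followed by 1 digit. This rule found 42 genes of 28395, and it used no measured value. From their known roles, 14 were placed among mitotic kinesins, 13 among transport kinesins, 10 among ciliary kinesins and 5 in a remainder called other kinesins.

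Kinesins are motor proteins that turn ATP hydrolysis into movement along microtubules, or into the removal of tubulin from microtubule ends. Mitotic kinesins build the spindle, move chromosomes and assemble the midzone at which a dividing cell is cut, and many of their genes are transcribed mainly late in the cell cycle. Transport kinesins carry vesicles, mitochondria, lysosomes and other cargo throughout the cell cycle, most of them towards the cell periphery. Ciliary kinesins move material along the axoneme of the cilium, set its length, or act in the signalling that passes through it.

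HCC827, an established human line from a lung adenocarcinoma, carries an activating EGFR deletion, and erlotinib inhibits the EGFR kinase. For 24 h the cells received either the vehicle DMSO or erlotinib at 1 µM, and each condition gave 3 RNA libraries, called here DMSO 1 to 3 and erlotinib 4 to 6 after the table's columns, although the sample titles number both groups 1 to 3. Both groups are the same line with the same EGFR deletion, so by their labels they differ in the agent only, and 1 line stands for the tumour type. The libraries held 20858083, 24641819 and 21172884 reads on genes for DMSO and 21944007, 20760204 and 21678395 for erlotinib. The study states in general that experiments were repeated independently, but the labels do not say whether the libraries of a group came from separate cultures, and if they did not, p-values measure only technical spread.

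Values are normalised read counts, called signal here: reads on a gene divided by 1 size factor per library. The comparison asks how the RNA of each kinesin differed between erlotinib and DMSO. It was tested with limma on log2(signal + 1) for the 14215 genes whose signal averaged 10 or more over the libraries. Benjamini-Hochberg adjustment ran over all of them, with a threshold of 0.05. Adjusted p-values come from that fit unless another scaling or a library left out is named beside them. A log2 fold change is erlotinib minus DMSO on this scale, which understates the change of low genes, and SE is its standard error. Much of the transcriptome differed between the groups, since 35.4% of tested genes were lower and 35.3% were higher with erlotinib, 70.7% in all, around a median log2 fold change of 0.02.

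The labelled cell type was checked first against marker genes. Lung adenocarcinoma and epithelial markers summed to a signal of 356450 in DMSO and 247195 in erlotinib, with the keratin KRT7 the highest at 123686 and 79897. Of 9 tested, 5 fell (55.6%, against 35.4% of all tested genes) and 2 rose (22.2%, against 35.3%), the latter being NKX2-1 and NAPSA. SFTPB was too low to test at 8.23 and 10.5. Neuroendocrine and neuronal markers summed to 13.7 and 17.4, with SYP the highest at 8.24 and 14.0, and 7 of 10 had at most 3 reads in every library. Fibroblast, immune and endothelial markers summed to 3008 and 3679, nearly all of it CD68 at 2898 and 3394. COL1A2 and DCN had no more than 3 reads in any library. The fibroblast marker COL1A1 was present, at a mean of 77.7 in DMSO and 216 in erlotinib (log2 fold change 1.47, adjusted p = 6.8e-07). In this list 3 of the 4 tested rose, namely CD68, COL1A1 and VWF. VWF, at 3.94 in DMSO, passed the filter only through the erlotinib libraries.

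Of the 42 kinesins, 33 passed the filter on low signal. Erlotinib lowered 17 of these 33 (51.5%) and raised 7 (21.2%), and 9 passed the threshold in neither direction, around a median log2 fold change of -0.40. The fall was deepest in the mitotic class, where all 12 tested genes were lower, with log2 fold changes between -2.96 and -1.38 and a median of -2.52. Transport kinesins had 3 of 10 lower and 3 higher, shares of 30.0% each that lie near the 35.4% and 35.3% of all tested genes, and a median of -0.03, and ciliary kinesins had 2 of 8 lower, 3 higher and a median of 0.35. The mitotic gene that changed least, KIF18A, still fell further than any transport kinesin, while the ciliary gene KIF24 lay inside the mitotic range at -1.94. Called falls of at least 1 log2 unit made up 10.8% of all tested genes but 14 of the 33 kinesins, namely the 12 mitotic genes, KIF24 and KIF7. The classes were set by hand, and the count of 12 mitotic falls depends on them: KIF2A, which also acts at spindle poles, was placed among other kinesins and had a log2 fold change of -0.13 (adjusted p = 0.14). The count also takes KIF4A and KIF4B, a near-identical pair described below, as separate genes, and summing them gave 11 mitotic falls. No test of the difference between classes was run. With libraries scaled to their total count instead, which moved the median of all tested genes to 0.19, 3955 of those genes were lower and 6156 higher. The kinesins then split into 17 lower and 11 higher, the mitotic class kept its 12 falls, transport kinesins had 3 lower, 5 higher and a median of 0.15, and ciliary kinesins had 2 lower and 5 higher.

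**Figure D1:**
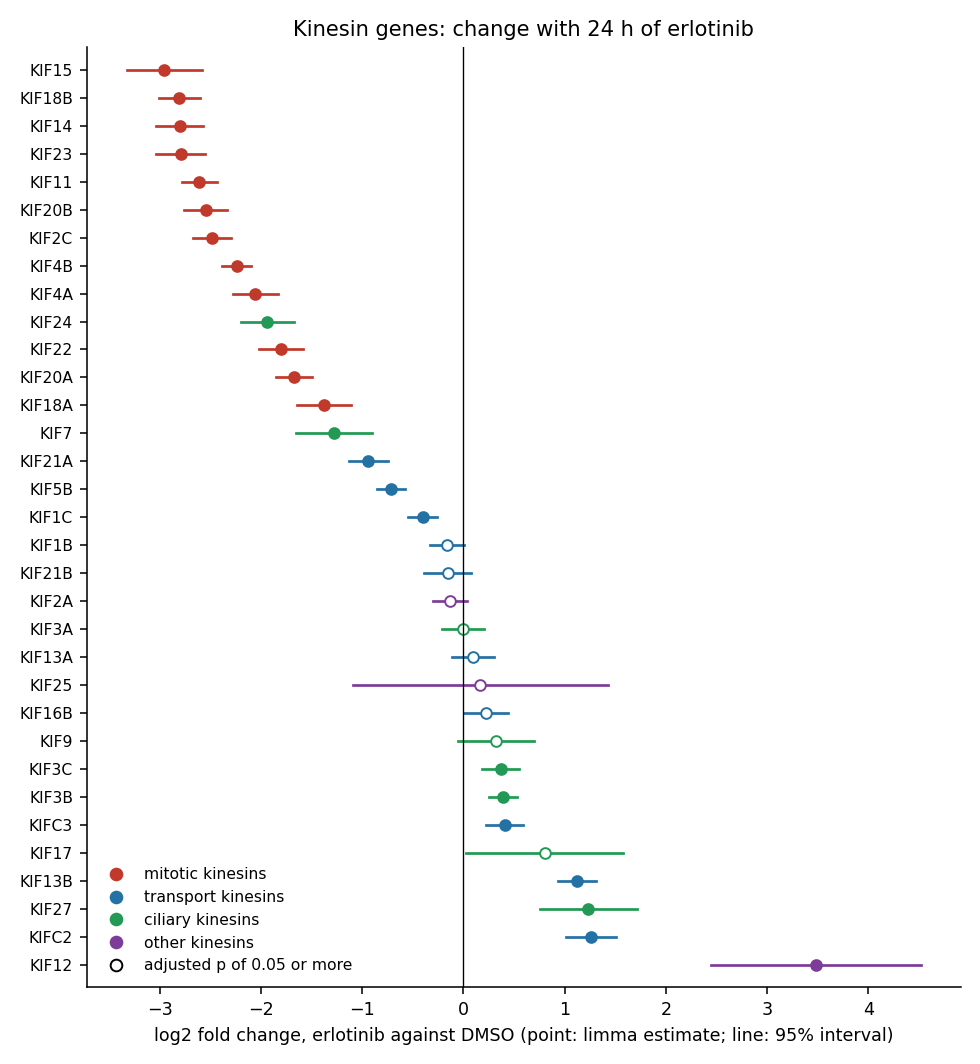
Log2 fold change of each of the 33 tested kinesins, erlotinib minus DMSO on log2(signal + 1), grouped by class. Points are limma estimates, bars are 95% confidence intervals, and filled points have an adjusted p under 0.05. All 12 mitotic kinesins lie at or below -1.38, whereas transport kinesins range from -0.94 to 1.26.

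Promoters of 5 kinesins are printed to show letters that most mitotic members share, of which the ciliary member shown has only part. Many genes expressed late in the cell cycle carry 2 short elements near the start of transcription, the cell cycle genes homology region (CHR, searched as TTTGAA or TTCAAA) and the CCAAT box (searched as CCAAT or ATTGG), so both strands were covered, and the motifs share no overlap in the sequences shown. The CHR and an adjacent CCAAT box are known as places bound by DREAM or by MYBL2 and FOXM1 complexes and by NF-Y. Each sequence is the 250 bases before the RefSeq start (GRCh38.p14), 5′ to 3′ on the strand of the gene, with motif letters in capitals. KIF23 and KIF11 stand for the deep falls, KIF4A for the gene with a near-identical copy, KIF18A for the smallest mitotic fall and KIF3B for the ciliary gene with the highest level.
KIF23, chr15:69414099-69414348, plus strand: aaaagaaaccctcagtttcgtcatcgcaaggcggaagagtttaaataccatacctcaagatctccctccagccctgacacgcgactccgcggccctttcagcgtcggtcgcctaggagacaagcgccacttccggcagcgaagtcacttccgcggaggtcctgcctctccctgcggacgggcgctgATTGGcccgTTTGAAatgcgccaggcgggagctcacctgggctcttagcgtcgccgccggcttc
KIF11, chr10:92592880-92593129, plus strand: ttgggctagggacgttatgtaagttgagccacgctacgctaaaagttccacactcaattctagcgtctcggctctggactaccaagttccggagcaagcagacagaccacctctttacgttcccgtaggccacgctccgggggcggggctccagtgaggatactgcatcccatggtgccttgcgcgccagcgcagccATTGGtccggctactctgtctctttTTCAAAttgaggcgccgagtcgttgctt
KIF4A, chrX:70289854-70290103, plus strand: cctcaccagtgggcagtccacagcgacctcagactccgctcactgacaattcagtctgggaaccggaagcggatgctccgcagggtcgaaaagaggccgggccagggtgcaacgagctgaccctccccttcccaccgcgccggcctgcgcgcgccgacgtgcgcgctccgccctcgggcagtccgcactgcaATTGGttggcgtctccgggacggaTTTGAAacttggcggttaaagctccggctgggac
KIF18A, chr11:28108157-28108406, minus strand: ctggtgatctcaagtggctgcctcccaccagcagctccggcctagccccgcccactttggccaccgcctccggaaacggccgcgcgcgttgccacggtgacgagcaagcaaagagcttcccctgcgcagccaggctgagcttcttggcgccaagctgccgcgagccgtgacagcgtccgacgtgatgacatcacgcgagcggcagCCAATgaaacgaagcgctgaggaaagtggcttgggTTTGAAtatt
KIF3B, chr20:32277401-32277650, plus strand: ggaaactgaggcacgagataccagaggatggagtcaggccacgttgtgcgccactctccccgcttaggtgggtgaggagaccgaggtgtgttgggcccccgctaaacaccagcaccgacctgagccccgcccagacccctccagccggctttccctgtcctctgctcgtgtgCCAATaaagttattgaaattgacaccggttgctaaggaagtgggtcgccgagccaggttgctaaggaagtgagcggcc

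In these windows the CHR letters began 55 bases before the start in KIF23, 28 in KIF11, 34 in KIF4A and 10 in KIF18A. The CCAAT letters began 64, 53, 58 and 45 bases before the start in the same genes. KIF3B held CCAAT letters 78 bases before its start and no CHR letters. In windows of 300 bases, 250 before to 50 after each start, 10 of 15 mitotic promoters held CHR letters (66.7%), 11 held CCAAT letters (73.3%) and 9 held both (60.0%). Over all 35116 RefSeq promoters of that length the shares were 15.2%, 34.6% and 5.90%. Of 13 transport promoters only that of KIF5B held CHR letters, among the 10 ciliary promoters none did while 3 held CCAAT letters, KIF24 having the latter at 3 positions. The mitotic genes with no CHR letters in any window were KIF2B, KIF2C, KIF20A and KIF22, of which KIF2C had a log2 fold change of -2.49. In all, 34 of the 42 kinesins had a promoter in the table, and a match of letters is a description of the window, not of a bound site.

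Spindle assembly kinesins fell to between 12.6% and 17.9% of their DMSO means. KIF11 (Eg5) slides antiparallel microtubules apart to separate the spindle poles. Its signal was 2383, 2592 and 2532 in DMSO and 417, 412 and 396 in erlotinib, a fall to 16.3% (log2 fold change -2.61, SE 0.08, adjusted p = 2.5e-16). Every erlotinib library lay far below every DMSO library, as it did for all 12 mitotic genes, where 36.9% of tested genes had erlotinib wholly below DMSO. KIF15, which can also hold spindle poles apart, had 310, 389 and 395 against 42.4, 48.5 and 46.8, and its log2 fold change of -2.96 was the lowest of the kinesins (SE 0.18, adjusted p = 6.4e-12). Of all tested genes, 0.619% had a lower log2 fold change than KIF15. KIF2C (MCAK), which depolymerises microtubules and corrects faulty chromosome attachments, had 2357, 2126 and 2330.0 in DMSO and 428, 362 and 426 in erlotinib (log2 fold change -2.49, SE 0.09, adjusted p = 2.3e-15). The libraries of each group lay close together in these 3 genes, apart from DMSO 1, which was the lowest for KIF15. In bulk RNA, fewer cells that express a gene and less of its RNA per cell cannot be told apart.

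Kinesins of chromosome movement fell to between 14.2% and 38.6% of their DMSO means. KIF18B, which shortens astral microtubules, had a signal of 2339, 2271 and 2771 in DMSO and 371, 319.8 and 359 in erlotinib (log2 fold change -2.81, SE 0.10, adjusted p = 7.7e-16). Its relative KIF18A damps the oscillations of chromosomes at the metaphase plate. It had 765, 954 and 753 against 352, 342 and 260.2, leaving 38.6% of the DMSO mean (log2 fold change -1.38, SE 0.13, adjusted p = 4.8e-09). The groups did not overlap in either gene, but the confidence intervals of KIF18A, -1.64 to -1.11, and KIF18B, -3.01 to -2.61, were well apart. KIF22 (Kid) binds chromosome arms and pushes them towards the spindle equator. Its signal of 1077, 970.5 and 1128 fell to 328, 302 and 281, or 28.7% (log2 fold change -1.80, SE 0.10, adjusted p = 2.9e-12). KIF22 was thus among the genes with a shallower fall, next to KIF20A and KIF18A.

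Kinesins of the midzone and of cytokinesis fell to between 14.2% and 31.2%. KIF23 (MKLP1) is the motor of the centralspindlin complex. Its signal was 1361, 1717 and 1327 in DMSO and 229, 195 and 205 in erlotinib, which is 14.3% of the DMSO mean (log2 fold change -2.80, SE 0.11, adjusted p = 1.1e-14). KIF14, which recruits citron kinase to the midbody, had 1609.7, 1994 and 1514 against 221, 257 and 248 (log2 fold change -2.80, SE 0.11, adjusted p = 6.6e-15). DMSO 2 was the highest library in both genes, and the erlotinib libraries differed little. KIF20B (MPP1), a midzone and midbody kinesin, had 1846, 2200.1 and 1752 against 354, 307 and 325 (log2 fold change -2.55, SE 0.10, adjusted p = 6.7e-15). KIF20A (MKLP2), which brings the chromosomal passenger complex to the midzone, had 1680.1, 1947 and 1740.3 against 560.1, 565 and 550.4. KIF20A kept 31.2% of its DMSO mean (log2 fold change -1.67, SE 0.09, adjusted p = 4.2e-13), so the paralogs KIF20A and KIF20B were separated by their confidence intervals, -1.85 to -1.50 and -2.76 to -2.34. KIF20A shares 74 exon bases with CDC23 on the opposite strand, which had a log2 fold change of -0.46, and the strand of counting is not stated.

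**Figure D2:**
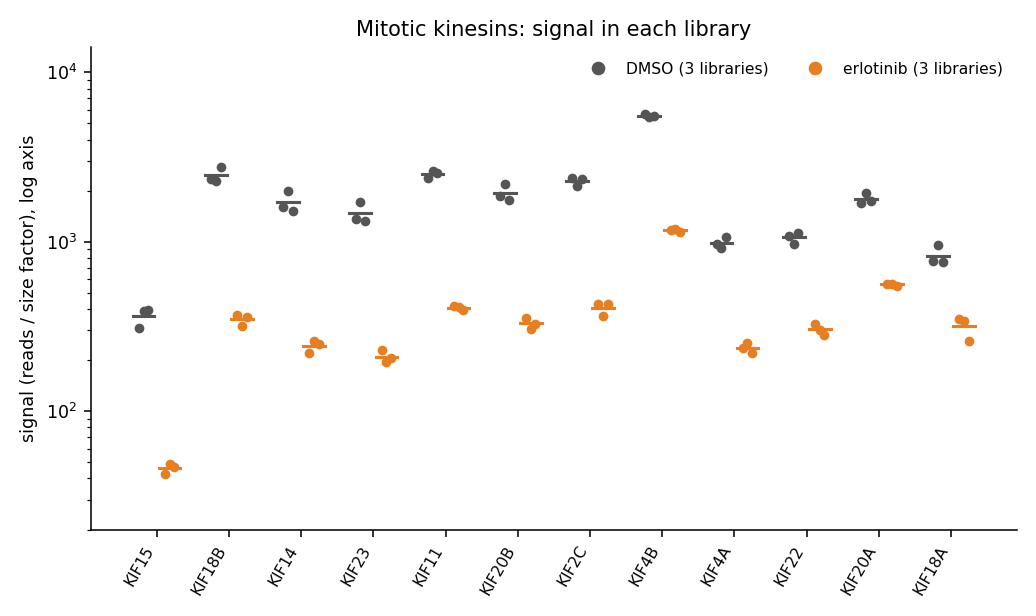
Signal of the 12 tested mitotic kinesins in each library, on a log axis, with DMSO 1 to 3 and erlotinib 4 to 6 as separate points and bars at the group means. In every gene the erlotinib points lie below the DMSO points, with the smallest gap in KIF18A.

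KIF4A, the chromokinesin that limits the length of midzone microtubules, and KIF4B could not be separated. KIF4B (chr5:155013755-155018141, hg38) has 1 exon of 4387 bases and is an intronless copy of the 4388-base transcript of KIF4A (chrX:70290104-70420886), which has 31 exons, and their aligned bases are 95.4% identical. The aligner does not split reads at introns, and 64.0% of the 100-base windows of the KIF4A transcript cross a junction while none does so in the copy, so how the reads were split between the pair cannot be told apart from how much RNA each gave. The junction of exons 2 and 3 of KIF4A, where exon 2 ends at 70290578 and exon 3 starts at 70290691 with an intron of 112 bases between them, shows how close the sequences are.
KIF4A mRNA, 30 bases on each side of the junction: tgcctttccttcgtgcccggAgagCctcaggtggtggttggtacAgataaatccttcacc
KIF4B gene, chr5:155013950-155014009: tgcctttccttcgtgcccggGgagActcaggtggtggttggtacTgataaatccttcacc
Capitals mark the differing bases, A21G, C25A and A45T from KIF4A to KIF4B, counted from 1 at the 5′ end. KIF4A had a signal of 964, 914 and 1062 in DMSO and 234, 251 and 219 in erlotinib (log2 fold change -2.06, SE 0.11, adjusted p = 6.6e-13). KIF4B had 5655, 5428 and 5474 against 1173, 1184 and 1139 (log2 fold change -2.24, SE 0.07, adjusted p = 1.1e-16). The value listed for KIF4B was 5.86, 5.94 and 5.16 times that of KIF4A in the DMSO libraries and 5.00, 4.71 and 5.20 times in the erlotinib libraries. Added together, the pair fell from 6499 ± 142 to 1400.3 ± 39.1 (SD, n = 3), or to 21.5%. The share left of the sum lay between those of KIF15 and KIF18A, the ends of the mitotic range.

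Mitotic partners of these motors followed the same direction. Of 20 listed genes that act with mitotic kinesins or mark dividing cells, all 20 fell, against 35.4% of all tested genes. Their median log2 fold change was -2.50. CENPE, a kinesin of the kinetochore whose symbol is outside the naming rule, went from 1419 to 216 (log2 fold change -2.71, adjusted p = 5.8e-14). AURKB, the kinase of the chromosomal passenger complex, fell by 3.33 log2 units and CDK1, the kinase that drives entry into mitosis, by 3.03, while INCENP fell by 2.01 and citron kinase CIT by 0.85. BIRC5 (survivin), another subunit of the passenger complex, fell by 2.63. Among 12 factors that act on late cell cycle promoters, 8 were lower (66.7%, against the same 35.4%) and 4 did not pass the threshold. Their median was -1.01, and with total-count scaling the 4 without a call were called higher. MYBL2 dropped from 5228 to 503.5 (log2 fold change -3.38, adjusted p = 1.1e-16) and FOXM1 from 8029 to 1936 (log2 fold change -2.05, adjusted p = 5.2e-16). Their drop and that of the mitotic kinesins were measured in the same libraries, and any link between them was not tested.

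Of the 10 transport kinesins tested, KIF5B, KIF21A and KIF1C fell. KIF5B, the ubiquitous heavy chain of conventional kinesin, had a signal of 8619, 9361 and 8125 in DMSO and 5353, 5430.0 and 5068 in erlotinib (log2 fold change -0.72, SE 0.07, adjusted p = 5.7e-09). KIF21A, a kinesin that restrains microtubule growth, had 1185, 1447 and 1304 against 651, 698 and 696 (log2 fold change -0.94, SE 0.09, adjusted p = 1.1e-08). Both lay lower in every erlotinib library, at 60.7% and 51.9% of the DMSO means. KIF1C, which carries vesicles and adhesion receptors, had 11519, 9501 and 10203 against 7849, 7887 and 7781, the most even erlotinib values of these genes (log2 fold change -0.40, SE 0.07, adjusted p = 2.7e-05). In DMSO it varied more, with DMSO 1 the highest.

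Of the 3 transport kinesins that rose, KIFC2 and KIF13B rose by more than 1 log2 unit. KIFC2, a C-terminal motor first studied in neurons, had 277, 261 and 299.7 in DMSO and 774, 649 and 596 in erlotinib (log2 fold change 1.26, SE 0.12, adjusted p = 7.1e-09). KIF13B (GAKIN), which binds the polarity protein DLG1, had 858, 724 and 927 against 1790.3, 1823 and 1810.4 (log2 fold change 1.12, SE 0.09, adjusted p = 5.6e-10). Every erlotinib library was higher than every DMSO library in both, and this was so for 36.7% of tested genes. KIFC3, a minus-end motor of epithelial cells, rose by 0.41 log2 units (SE 0.09, adjusted p = 3.1e-04). No call was made for KIF1B at -0.16 (adjusted p = 0.081), KIF21B at -0.16 (adjusted p = 0.21), KIF13A at 0.10 (adjusted p = 0.39) or KIF16B at 0.22 (adjusted p = 0.065), whose 95% interval reached from 0.00 to 0.44. KIF1B passed the threshold at -0.21 without DMSO 1 and at -0.22 without erlotinib 6, and KIF16B at 0.28 without DMSO 1. KIF16B also passed it at 0.24 with edgeR, with limma-voom and with TMM factors in limma, and at 0.40 with total-count scaling, where KIF13A passed it at 0.28.

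**Figure D3:**
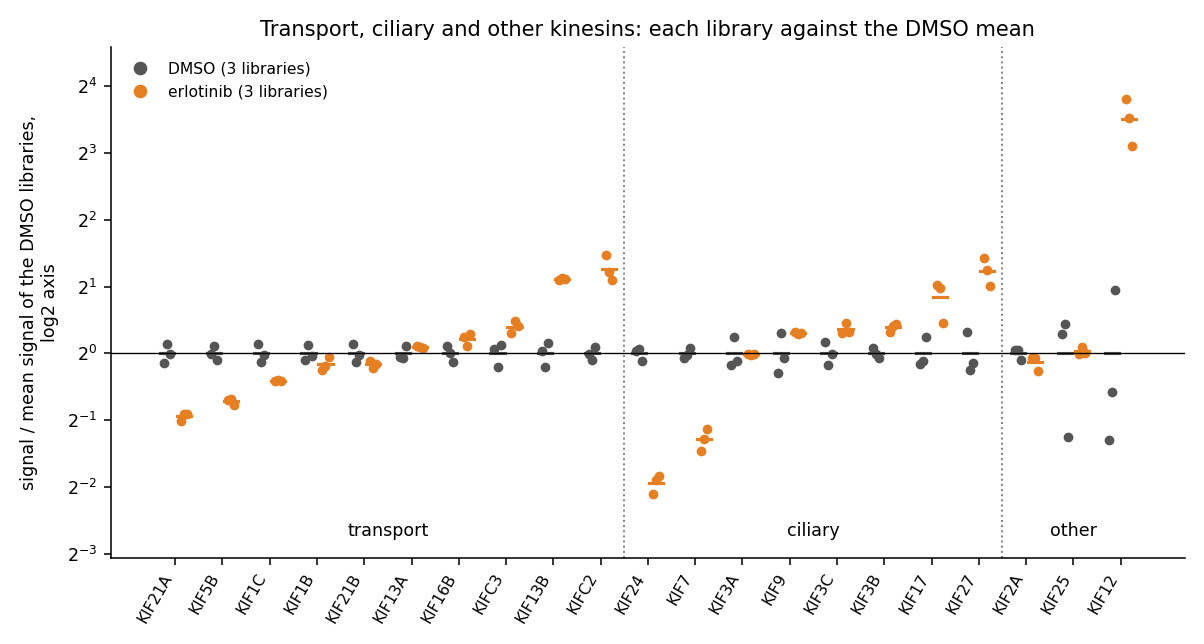
Signal of the tested transport, ciliary and other kinesins in each library, divided by the DMSO mean of the gene, on a log2 axis, with bars at the group means. KIFC2, KIF13B, KIF27 and KIF12 lie above the DMSO points and KIF24, KIF7, KIF21A and KIF5B below them, with the widest spread in the genes of low signal.

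Ciliary kinesins held a mitotic-size fall, and the 3 of 8 that rose (37.5%) lay near the 35.3% of all tested genes. KIF24, which depolymerises centriolar microtubules and restrains the formation of cilia, had 665, 678 and 597 in DMSO and 150.4, 174 and 181 in erlotinib (log2 fold change -1.94, SE 0.12, adjusted p = 1.6e-11). KIF7, a regulator of Hedgehog signalling at the cilium tip, had 185, 190.4 and 204 against 70.1, 79.2 and 88.0 (log2 fold change -1.28, SE 0.18, adjusted p = 2.1e-06). Groups were apart in both genes. For KIF7 the value is uncertain, since 589 of its exon bases (10.8%) are shared with TICRR on the opposite strand, and TICRR, at a mean signal of 482, fell by 3.32 log2 units. KIF24 shares 144 exon bases (2.22%) with UBAP1, which has a mean signal of 3779 and a log2 fold change of 0.15.

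Subunits of kinesin-2, the motor of anterograde intraflagellar transport, did not move as one. KIF3B had a signal of 6265, 5860.0 and 5652 in DMSO and 7423, 7856 and 8009 in erlotinib (log2 fold change 0.39, SE 0.06, adjusted p = 1.8e-05). KIF3C, an alternative partner of KIF3A, had 1619.9, 1278 and 1425 against 1784, 1979.9 and 1792 (log2 fold change 0.37, SE 0.09, adjusted p = 8.4e-04). Both rose, with no overlap between groups. KIF3A had 919, 1220.3 and 958 against 1022, 1015 and 1027, so that the erlotinib libraries lay within the DMSO range, and the 95% interval of its log2 fold change was -0.21 to 0.20. KIFAP3, the non-motor subunit that joins the motors to cargo, rose by 0.98 log2 units. Of KIF3A, KIF3B, KIF3C and KIFAP3, only KIF3A had no call.

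Of KIF27, KIF17 and KIF9, further ciliary kinesins of low signal, KIF27 passed the threshold. KIF27, a relative of KIF7 linked to motile cilia, had 68.1, 45.5 and 49.2 in DMSO and 146, 129 and 109.5 in erlotinib, a rise to 236% (log2 fold change 1.24, SE 0.23, adjusted p = 6.4e-05). Its value is uncertain because 61.5% of its transcript matches another place on chromosome 9 (85753306 to 85789491, hg38) at 97.3% identity. KIF17, which takes part in transport to the cilium tip, had 17.0, 17.6 and 22.5 against 38.8, 37.6 and 26.2. The groups did not overlap, yet the adjusted p was 0.061, and without DMSO 3 the log2 fold change of 0.80 became 0.92 (limma adjusted p = 0.0498). KIF17 also passed the threshold at 0.97 with total-count scaling, at 0.60 with a pseudocount of 10 and at 0.80 with at least 10 reads in every library. KIF9, a kinesin of motile cilia, had a log2 fold change of 0.32 (adjusted p = 0.11), without DMSO 2 it was 0.49 (adjusted p = 0.020), and with total-count scaling it was 0.50 (adjusted p = 0.020). KIF9 also shares 870 exon bases (14.8%) with its antisense gene KIF9-AS1.

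Markers of ciliated cells rose beside these genes. The 12 markers summed to a signal of 163, 184 and 172 in DMSO and 839.8, 788 and 876 in erlotinib. All 7 that passed the filter were higher, against 35.3% of all tested genes. Of the 7, FOXJ1 and DNAI1 passed the filter only through the erlotinib libraries, so these 2 were counted only because they were high with erlotinib. CAPS was the most abundant, going from 25.5 to 316. FOXJ1, the master factor of motile cilia, went from at most 2 reads in any DMSO library to a mean signal of 148.5. DNAI2, an axonemal dynein chain, was listed at 0 in every library, and TEKT1 and DNAH9 had no more than 4 reads in any. Of 24 intraflagellar transport genes tested, 14 rose (58.3%, against 35.3% of all tested genes) and 3 fell (12.5%, against 35.4%). The other 7 had no call, and the median was 0.53. Of the 24, WDR19 at 1.44 and IFT140 at 1.62 rose most, and HSPB11 at -0.87 and DYNC2H1 at -0.77 were the lowest. Any part of such cells or genes in the rises of KIF3B, KIF3C and KIF27, the ciliary kinesins called higher, was not tested.

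Of the 5 other kinesins, KIF12 showed the largest rise of the family. KIF12, known from kidney and liver epithelium, had a signal of 2.27, 3.71 and 10.7 in DMSO and 78.4, 64.3 and 47.7 in erlotinib (log2 fold change 3.48, SE 0.50, adjusted p = 2.8e-06). In reads, the DMSO libraries held 2, 4 and 10, so the gene entered the test through the erlotinib libraries and its log2 fold change ranged from 2.26 with a pseudocount of 10 to 4.01 without DMSO 3. KIF2A, a depolymerising kinesin of spindle poles and neurons and a paralog of KIF2C, had 1815, 1830.4 and 1638 against 1676, 1674 and 1469. Its groups overlapped, and the 95% interval of its log2 fold change, -0.30 to 0.03, was far from that of KIF2C at -2.68 to -2.29. KIF2A shares 2446 exon bases (18.7%) with DIMT1 on the opposite strand, which had a log2 fold change of -0.65. KIF25 was at 12.5, 13.9 and 4.28 against 10.2, 10.9 and 10.3, too low for a direction to be read.

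Of the 42 kinesins, 9 did not reach the filter. KIF2B and KIFC1 were listed at 0 in all 6 libraries. For KIFC1 (HSET), a minus-end motor of the spindle pole, the 0 is not read here as absence of the RNA. Its whole transcript also lies on 2 alternate contigs of chromosome 6 at 100% and 99.5% identity, and the authors counted uniquely mapped reads, but whether their index held these contigs is not given in the sources used here. KIF26B and KIF5C also match alternate contigs, over 93.4% and 52.3% of their transcripts, and had at most 2 and 4 reads. The neuronal transport kinesins KIF1A and KIF5A had at most 5 and 2 reads in any library. The ciliary genes KIF6 and KIF19 had 3 and 2 reads over all libraries, and KIF26A had 10. For KIF1A, KIF5A, KIF6, KIF19 and KIF26A, no difference was detectable at this depth.

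Summed per kilobase of the main transcript, the family fell by 42.0%. The mitotic sum was 5608, 5801 and 5737 signal per kb in DMSO and 1242, 1188 and 1164 in erlotinib, or 5715 ± 98.2 against 1198 ± 40.0 (SD, n = 3), which is 21.0%. Transport kinesins kept 84.0%, from 4019.8 ± 109 to 3378 ± 44.6, while ciliary kinesins reached 119%, from 1599 ± 66.5 to 1897 ± 60.1, and other kinesins 103%. Mitotic kinesins thus went from 49.4% to 17.9% of the summed kinesin signal per kb, transport kinesins from 34.8% to 50.4%, and ciliary kinesins from 13.8% to 28.3%. The sums rest on few genes, because KIF5B and KIF1C hold most of the transport sum and KIF3B most of the ciliary sum. KIF4B, whose value is uncertain, was the largest member of the mitotic sum, at 1258 in DMSO and 266 in erlotinib. Without division by length, the mitotic share of the summed signal went from 37.8% to 11.7%.

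**Figure D4:**
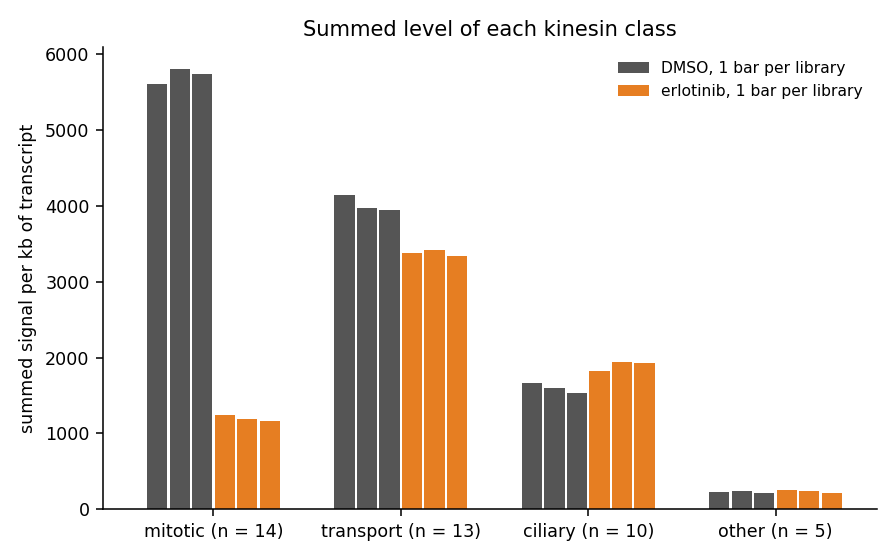
Summed signal per kilobase of the mitotic, transport, ciliary and other kinesins in each of the 6 libraries, with axes starting at 0. The mitotic bars stand at 5608 to 5801 in DMSO and at 1164 to 1242 in erlotinib, and the ciliary bars are higher in each erlotinib library.

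By level per kb, the order of the kinesins changed. In DMSO the highest were KIF5B at 1483 signal per kb, KIF1C at 1315, KIF4B at 1258 and KIF3B at 969, followed by the mitotic KIF2C at 794. The libraries of KIF5B, from 1385 to 1596, overlapped those of KIF1C, from 1200.1 to 1455, although within each DMSO library KIF5B was the higher. Those of KIF4B lay inside the range of KIF1C, so KIF1C and KIF4B were not separated. In erlotinib KIF3B led at 1269 signal per kb, ahead of KIF1C at 990.2, KIF5B at 901, KIFC3 at 553 and KIF3C at 347. Here the library ranges of KIF3B, KIF1C and KIF5B did not overlap. The uncertain KIF4B, at 266, was then the first mitotic gene in the order. Because the aligner does not split reads at introns, levels of genes with different exon numbers may not be comparable. KIF3B has 9 exons, KIF1C 23 and KIF5B 26, and the effect on the order was not tested.

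**Figure D5:**
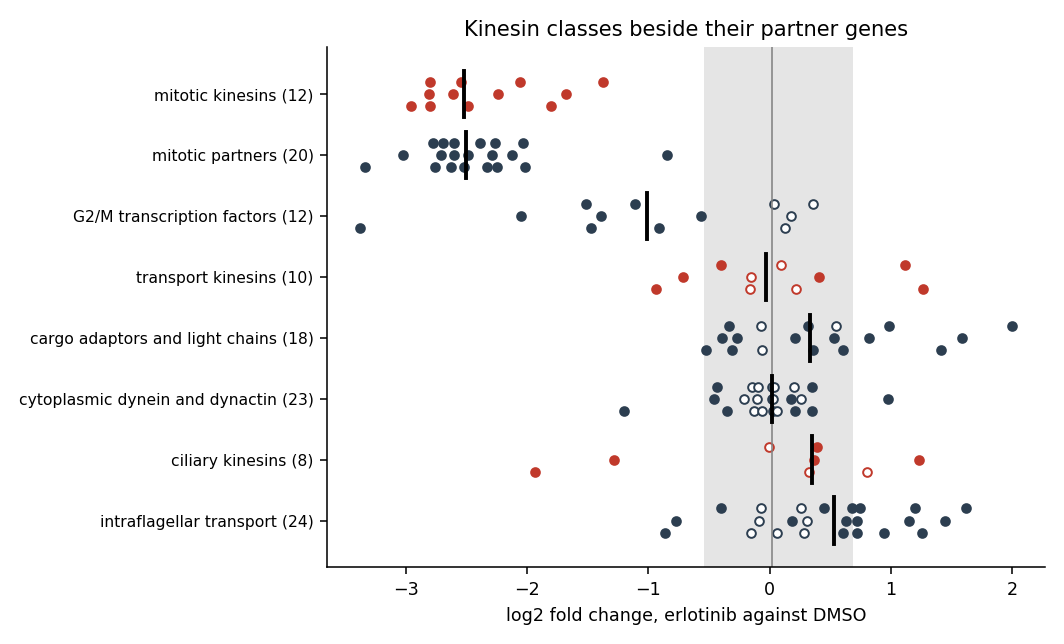
Log2 fold change of every tested gene of the kinesin classes (red) and of the partner lists, with black bars at the medians. Open points have an adjusted p of at least 0.05, and the grey band is the interquartile range of all tested genes, from -0.53 to 0.68. Mitotic kinesins and their partners lie below the band, while adaptors, dynein and intraflagellar transport genes mostly lie within or above it.

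Cargo adaptors and kinesin light chains, which tie the transport motors to their load, were mostly higher. Of 18 tested, 10 rose (55.6%, against 35.3% of all tested genes) and 5 fell (27.8%, against 35.4%). The other 3 had no call, the median was 0.33, and with total-count scaling 11 rose and 2 fell. The light chains that pair with KIF5B differed among themselves: KLC4 rose from 105.5 to 422 (log2 fold change 2.00, adjusted p = 2.1e-10), whereas KLC1, KLC2 and KLC3 fell, with log2 fold changes of -0.27, -0.31 and -0.34. MAPK8IP3 (JIP3), an adaptor between kinesin-1 and cargo, rose by 1.58 log2 units and its relative MAPK8IP1 by 1.41. KIFBP, listed under its older symbol KIF1BP, which holds several kinesins away from microtubules, fell by 0.53.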

How the data were processed

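RNA of HCC827 cells given DMSO or erlotinib was sequenced in 6 libraries. The authors aligned paired-end reads to GRCh38 with Bowtie2 2.3.4, assigned reads with 1 mapped place to genes by featureCounts 1.6.3 and used DESeq2 1.18.1. The deposited table is described as raw counts, but its values are a signal: the authors' reads divided by 1 size factor per library. Whole reads were recovered for 100% of values in all 6 libraries (tolerance 0.01). Strand of counting is not given in the sources used here. Every column was used, and 475 rows lacking a symbol kept their identifier.

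The fit used limma 3.58.1 (trend on the mean) in R 4.3.3 on log2(signal + 1), for genes averaging a signal of 10 or more. On simulated data for the same comparison (14215 genes, 200 of them changed by 1 log2 unit), limma recovered 174 of the 200, and 5.43% of its 184 calls were false. In the real data 70.7% of genes were called, a far larger share than was simulated, so the simulation does not bear on the choice of scaling. On the recovered reads, edgeR 4.0.16 called 4941 genes lower and 5085 higher, and DESeq2 1.42.0 called 4934 and 4949. Other alternatives were limma-voom, TMM or total-count scaling, pseudocounts of 0.1 and 10, no filter, at least 10 reads in every library, a threshold of 0.01 and each library left out. Summing KIF4A and KIF4B was chosen after seeing the data.

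Kinesin classes, marker lists and lists of partners, late cell cycle factors, adaptors, intraflagellar transport and dynein genes were written by hand, and 183 of their 184 genes were in the table. They and the kinesins were chosen with earlier results of these data known. Libraries are given for every tested mitotic kinesin and, in the other classes, for the 4 largest calls and the 2 highest levels per kb, and some further kinesins named here were added after their values were seen. From each other list the 2 lowest and 2 highest calls and a few genes set by name are given, except 1 gene that is not reported here. Signal per kb uses the length of the main (MANE) transcript in GENCODE v44. Copies were sought with minimap2 2.31-r1302 (at least 50% of a transcript at 90% identity). Libraries of 1 group correlated at 0.983 to 0.990 and those of different groups at 0.901 to 0.910 (Pearson's r across genes, which are not independent replicates), and no libraries were the same within sampling noise.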

Additional observations from a re-analysis of the deposited data

How the results depend on the processing

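Of 33 tested kinesins, 24, those called in the main test, kept their direction and call in every alternative that gave them a value, among them all 12 mitotic kinesins (KIF12 was not tested with at least 10 reads in every library). Scaling to the total count shifted the median over all genes tested from 0.02 to 0.19. With it 11 kinesins rose (median -0.22), as did 5 transport (median 0.15) and 5 ciliary kinesins (median 0.52). Median log2 fold changes became -2.34 for mitotic kinesins, -2.32 for mitotic partners, -0.83 for late cell cycle factors (4 higher), 0.51 for adaptors (2 lower), 0.20 for dynein genes (10 higher) and 0.71 for intraflagellar transport. Summed signal, not divided by length, as a percentage of DMSO went from 19.98 to 22.6 for mitotic, from 81.3 to 92.1 for transport and from 119 to 134 for ciliary kinesins, and for other kinesins from 94.7, below DMSO, to 107, above it. It also reversed the log2 fold changes of KIF1B (0.018), KIF21B (0.022), KIF2A (0.046) and KIF3A (0.18), none of which was called in the main test. KIF3A, not called in any fit, was also positive with limma-voom (0.00288), TMM factors (0.0115) and without erlotinib 5 (0.00012), and with 1 library left out it ranged from -0.082 (without DMSO 1) to 0.12 (without DMSO 2). KIF25, at 4 to 15 reads, turned to -0.31 without DMSO 3. With no filter the kinesin and transport medians were -0.16 and -0.16, the all-gene median was 0.13, and 5 fibroblast, immune and endothelial markers rose. With at least 10 reads in every library, which drops KIF12 and KIF25, the kinesin median was -0.72, other kinesins had 0 higher (median -0.13), and 4 ciliated cell markers rose. Summing KIF4A and KIF4B gave a kinesin median of -0.28. At a threshold of 0.01, 2 dynein genes rose. Leaving out 1 library gave kinesin medians of -0.47 to -0.33, other-kinesin medians of -0.19 to 0.44, 0 to 1 late cell cycle factors higher, 2 to 6 dynein genes higher and dynein medians of -0.040 to 0.074; the cause of these moves was not tested. KIF13A, KIF16B, KIF17, KIF9 and KIF1B were called in some alternatives and not in the main test. No paired analysis was possible because the table's erlotinib columns are numbered 4 to 6, whereas the sample titles number both groups 1 to 3, so no column could be tied to a titled erlotinib sample and its number. For genes with a few reads under the filter, depth limits what can be seen.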

Other observations

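Cytoplasmic dynein moves cargo towards the cell centre, opposite to most kinesins. Of 25 dynein, dynactin and dynein-adaptor genes, 23 were tested by limma. Of these, 4 fell (17.4%, against 35.4% of all tested genes) and 5 rose (21.7%, against 35.3%). The other 14 had no call, and the median log2 fold change was 0.02. With total-count scaling 3 fell and 10 rose, while 2 rose at a threshold of 0.01 or without erlotinib 5, and 3 without erlotinib 4 or without erlotinib 6. The light chain DYNLL1, which also serves many proteins outside the motor, went from 2260 ± 15.7 to 983 ± 67.8 (SD, n = 3), a log2 fold change of -1.20 (limma adjusted p = 1.8e-11), and its paralog DYNLL2 had -0.46. The dynactin subunits ACTR1B and DCTN2 both rose by 0.35, and the intermediate chain DYNC1I1, at a mean signal of 27.8, had 0.98 with overlapping groups. The heavy chain DYNC1H1 had a signal of 7100.3, 8422 and 7320 in DMSO and 7185, 7209 and 9597 in erlotinib, so its groups overlapped. NDE1 and DYNLRB2 were listed at 0 in every library. Copies of these genes on the genome were not sought, and the 0 is not read here as absence of the RNA.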
